A study of Bombyx mori with 2 samples.

Results

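A set of 69 spliced loci had a level at least 2-fold higher in the hindwing bud of the silkmoth *Bombyx mori* than in the forewing bud by each of 3 measures of the same assembled transcripts. They were drawn from 10321 spliced loci of at least 1 FPKM in either bud (fragments per 1000000 mapped, scaled to 1000 bases of transcript), which in turn belonged to 25992 loci in all. A locus is a group of transcripts from both assemblies whose exons share at least 1 base on one strand, and a spliced locus has a transcript with an intron in each assembly. The measures were the FPKM as deposited, the midpoint of its deposited interval, and the midpoint multiplied by the exon length in kilobases, which gives fragments per 1000000 fragments (FPM). FPM is not divided by the transcript length, but it counts only the fragments on the assembled exons. Each measure was summed over the transcripts of a locus, and a locus was taken where log2((hindwing + 1)/(forewing + 1)) was at least 1 by all 3.

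The hindwing library and the forewing library were each made from the total RNA of 80 wing buds, pooled from larvae of the Daizo race in the IV instar, the hindwing buds from the third thoracic segment and the forewing buds from the segment before it. No other genotype or treatment was given in the labels. The purpose of the comparison was to accompany a survey of the genes bound by Ultrabithorax (Ubx) in the hindwing bud. With 1 library per wing bud there was no replicate, so every difference below describes these 2 pools, and no test across animals was possible. The libraries rested on an estimated 43525000 fragments for the hindwing bud and 37193000 for the forewing bud. Fewer cells of a type and less RNA per cell cannot be told apart in pooled buds.

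Moth wings grow inside the larva as epithelial buds, and the hindwing bud differs from the forewing bud by its place along the body axis. Ubx is a Hox transcription factor of the posterior thorax and anterior abdomen. In *Drosophila* it turns the dorsal appendage of the third thoracic segment into a haltere, by raising some genes and repressing others, and in moths and butterflies it is known for hindwing expression. Besides the wing epithelium itself, a bud carries a peripodial membrane and tracheae. The assemblies number their transcripts without gene names, and 0 of 73636 identifiers were found in the gene table used here, so the loci are given by position only. For the same reason the buds were not checked against marker genes, and no sequence of a locus was analysed here. Positions are 1-based, on scaffolds as the authors' files name them, and the sources used here do not give the genome build.

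The loci were chosen by these measured ratios, which are therefore given as a description and support nothing further. The 69 loci were 0.669% of the 10321 spliced loci, and 72 loci, 0.698%, met the same rule on the forewing side. By single measures the hindwing side held 716 loci (6.94%) by FPKM, 549 (5.32%) by the interval midpoint and 178 (1.72%) by FPM, so the FPM removed the most. FPM was also the smallest of the 3 ratios at 37 of the 69 loci, against 22 for FPKM and 10 for the midpoint. The median log2 ratio was 1.58 by FPKM, 1.69 by the midpoint and 1.49 by FPM. A ratio of at least 4-fold by every measure was met by 20 loci, and at least 8-fold by 10.

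**Figure D1:**
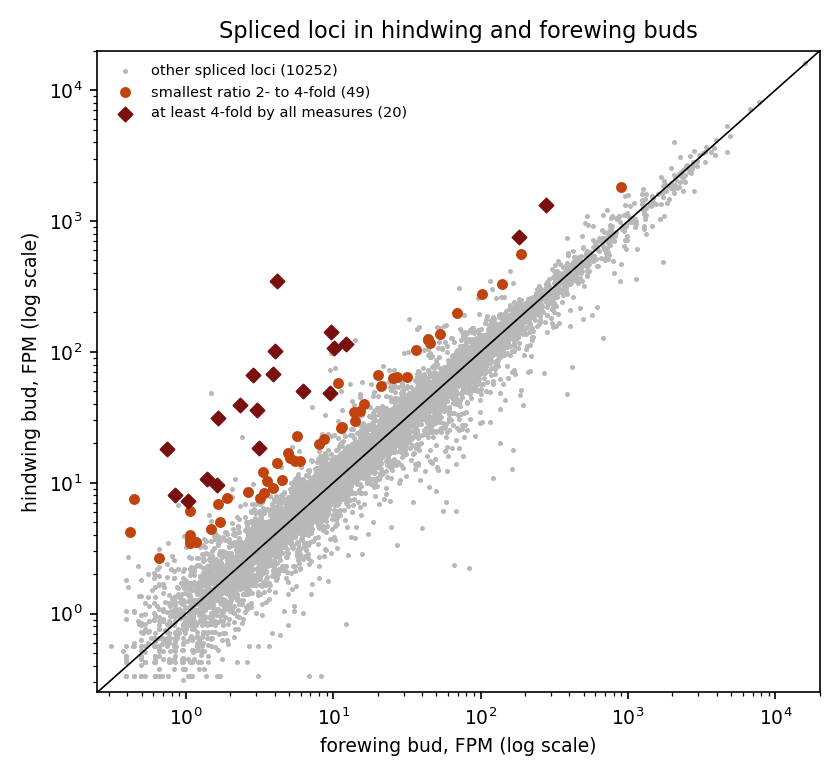
Level of each spliced locus in the hindwing bud (vertical axis) against the forewing bud (horizontal axis), both in FPM on log scales, with the line of equal levels. The 49 loci with a smallest ratio between 2- and 4-fold are circles and the 20 loci of at least 4-fold by all 3 measures are diamonds; among the 69 loci the hindwing level runs from 2.65 to 1812 FPM.

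The 69 loci ran from 2.65 to 1812 FPM in hindwing, within the range of 0.31 to 16162 FPM of the 10180 spliced loci on neither side. Their hindwing level had a median of 26.5 FPM, with quartiles of 9.06 and 67.4, and their forewing level had a median of 5.06 FPM, with quartiles of 1.90 and 16.1. By the median FPM alone the hindwing level was near that of the 10180 loci, which had medians of 26.2 FPM in hindwing and 26.1 FPM in forewing. By FPKM the hindwing median was higher, 23.9 in the 69 loci compared with 14.2 in the 10180 others. At least 100 FPM in hindwing was reached by 17 of the 69 loci (24.6%, compared with 15.5% of the others). Below 10 FPM there were 19 (27.5%, compared with 29.9%). In forewing 5 loci were below 1 FPM, and the thinnest forewing value rested on 15.5 fragments, with a median of 188 fragments over the 69 loci. Deposited intervals were apart between the buds at each of the 69 loci and at 45.6% of the 10180 others, but such an interval holds no difference between animals or pools.

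The 3 ratios of a locus lay close together where both assemblies built transcripts of like length. This follows in part from the measures themselves, since FPM is the midpoint multiplied by the length and unlike lengths move these 2 apart. The distance between the largest and the smallest log2 ratio had a median of 0.15 at the 40 loci where the mean assembled lengths were within 1.2 times of each other, and of 0.84 at the 29 loci of unlike length. It exceeded 1 at 13 loci. Just inside the limit, by their smallest log2 ratio, were loci at nscaf2865:5164283-5168125 (1.02), nscaf3027:2603684-2606956 (1.01) and nscaf1924:2-4038, the last with 64.5 FPM in hindwing and 31.7 FPM in forewing. Just outside were nscaf2795:1222713-1355501, nscaf2847:8225324-8238884 and nscaf3022:1338507-1343686, each at 0.99. The last of these had 124 FPM in hindwing and 14.1 FPM in forewing, a log2 ratio of 3.05, and was kept out by FPKM and the midpoint.

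**Figure D2:**
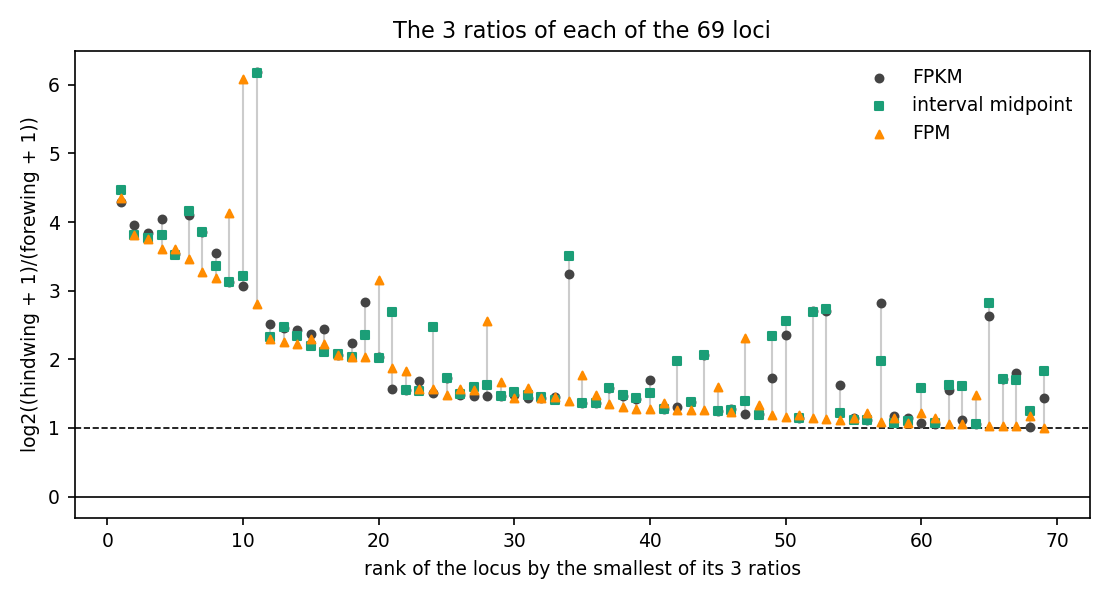
The log2 ratio of hindwing over forewing by FPKM, by interval midpoint and by FPM for each of the 69 loci, ordered by the smallest of the 3; the dashed line is the 2-fold limit and grey lines join the ratios of a locus. Loci with long grey lines, 13 of them over 1 log2 unit, are those whose size of difference depends on the measure.

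At the top of the order stood a 6-exon locus on the minus strand, nscaf1898:4410251-4419787, with 102 FPM in hindwing and 4.05 FPM in forewing. All 5 of its forewing introns were among the 6 hindwing introns. The extra hindwing intron belonged to a second 6-exon form that held 20.2% of the hindwing FPKM, while the form found in both buds held 79.8%. Its FPM interval was 95.6 to 107 in hindwing and 3.23 to 4.87 in forewing. No other spliced locus lay within 50 kb of it.

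The locus nscaf2136:6895776-6907485, on the plus strand with 7 exons, was assembled as 1 transcript with the same 6 introns in each bud, 1036 bases long in hindwing and 1052 in forewing. It had 67.4 FPM in hindwing, from 2934 fragments, and 3.89 FPM in forewing, from 144.5 fragments. Its neighbour on the same strand, 13284 bases away with 10 exons, had 414 FPM in hindwing and 159 FPM in forewing. That neighbour was more than 2-fold higher by FPM, at 1.37 on the log2 scale, but 0.50 by FPKM, and so was not among the 69.

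A pair of loci side by side on nscaf3093 were both among the 10 of at least 8-fold. The locus at 384178-389157 had 142 FPM in hindwing and 9.64 FPM in forewing, a log2 ratio of 3.75, with 9 exons in the hindwing form and 10 in the forewing form. The locus at 389691-393881 had 18.2 FPM in hindwing and 0.74 FPM in forewing, a log2 ratio of 3.47, with 4 exons in hindwing and 3 in forewing, and its hindwing FPKM of 533 lay above its own interval. Both lay on the minus strand, 533 bases apart, and the second was assembled to only 189 bases in hindwing and 167 in forewing, so whether they are separate transcripts or parts of one was not tested. The spliced loci on either side of the pair, both on the plus strand, had 9.27 and 12.9 FPM in hindwing and 18.8 and 9.30 FPM in forewing, at log2 ratios of -0.95 and 0.43. By FPKM both were higher in hindwing, at 0.76 and 0.33, so neither flanking locus reached the 2-fold limit in hindwing by FPM or FPKM.

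A 5-exon locus at nscaf2930:4759620-4765108 on the minus strand had 31.2 FPM in hindwing and 1.64 FPM in forewing, a log2 ratio of 3.61, and its 4 introns were the same in both buds. Its neighbours on both sides, within 7399 bases, were lower in hindwing, at log2 ratios of -0.09 and -0.56 by FPM and -1.40 and -1.74 by FPKM. The first of them was one of the more abundant loci of the buds, with 3607 FPM in hindwing and 3839 FPM in forewing.

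Among the loci of at least 4-fold the most splice forms were assembled at nscaf2902:6195637-6205936, on the minus strand, which had 39.6 FPM in hindwing and 2.33 FPM in forewing. The hindwing assembly held 5 forms with 4 to 7 exons and the forewing assembly 2 forms with 5 exons. The 5-exon form found in both held 29.7% of the hindwing FPKM and 68.6% of the forewing FPKM. A 4-exon form seen in hindwing alone led there with 30.7%. The forewing value rested on 86.5 fragments.

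The 16-exon locus nscaf1690:386323-401538, on the plus strand, had 107 FPM in hindwing and 10.2 FPM in forewing, and all 15 introns were found in both buds. In hindwing the introns were split over a 5-exon form with 55.7% and a 15-exon form with 44.3% of the FPKM, while the forewing had a single 16-exon form. The 4-exon locus nscaf1898:8918808-8921097 had 35.9 FPM in hindwing and 3.05 FPM in forewing from the same 3 introns. These 2 loci had a similar excess, 9.68-fold and 9.12-fold by FPM, once with a broken and once with an equal assembly.

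Both buds carried the same pair of 7-exon forms at nscaf2853:4912542-4917411. The leading form, with 65.6% of the FPKM in hindwing and 81.0% in forewing, was the same in both. The level was 66.7 FPM in hindwing and 2.87 FPM in forewing, a log2 ratio of 4.13, while the ratio by FPKM was 3.13. The mean assembled length was 1301 bases in hindwing and 579 in forewing.

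The largest ratio by FPM belonged to nscaf98:1433367-1452369, on the minus strand, with 347 FPM in hindwing (interval 333 to 360) and 4.13 FPM in forewing (2.55 to 5.70). The log2 ratio was 6.08 by FPM but 3.06 by FPKM and 3.21 by the midpoint. The difference between measures came with a difference in assembly. Hindwing had 3 forms of 24 exons each, with 41.4%, 33.0% and 25.6% of the FPKM and a mean length of 6085 bases. Forewing had 4 short transcripts of at most 5 exons, with a mean length of 782 bases, and the 2 spliced ones held 28.4% of its FPKM. All 5 forewing introns were among the 27 hindwing introns. The locus was thus assembled through 24 exons in hindwing and in pieces, from 153.5 fragments, in forewing. No spliced neighbour lay within 50 kb.

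At nscaf2839:362082-366008 the FPKM ratio, 6.19 on the log2 scale, was the largest of the 69, and it did not come from spliced transcripts. The FPKM was 404 in hindwing and 4.55 in forewing, but the multi-exon transcripts held 1.83% of the hindwing value, the rest being a short unspliced transcript, and the mean hindwing length was 125 bases against 1375 in forewing. By the spliced transcripts alone the log2 ratio was 0.59 by FPKM and -0.05 by FPM.

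The other 9 loci of at least 4-fold had 2 to 6 exons and closer levels. The highest was nscaf1898:8637908-8640632, with 1328 FPM in hindwing and 279 FPM in forewing, from transcripts of only 189 and 220 bases. It was followed by nscaf2990:37-6289, which begins at the edge of its scaffold and had 760 FPM in hindwing and 181 FPM in forewing. Here a 4-exon form led in hindwing with 82.6% and a 3-exon form in forewing with 57.3%, and neither was found in the other bud, although the mean lengths were nearly equal at 2693 and 2731 bases. The spliced neighbour of this locus, 2420 bases away, had 33.4 FPM in hindwing and 33.0 FPM in forewing.

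On nscaf2767 there were 3 of the 69 loci, each with the same introns and like length in both buds. The 3-exon locus at 323291-325595 had 48.1 FPM in hindwing and 9.52 FPM in forewing. The 3-exon locus at 1867960-1875105 had 10.7 FPM in hindwing and 1.38 FPM in forewing. The 2-exon locus at 473166-474940 had 16.8 FPM in hindwing and 4.96 FPM in forewing. They lay over 1552 kb with 43 spliced loci in reach and were not next to each other.

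The remaining loci of at least 4-fold were mostly low in both buds. The levels were 8.03 FPM in hindwing and 0.85 FPM in forewing at nscaf2993:4599237-4602099, where the hindwing transcript had 4 exons and the forewing one 2. At nscaf2860:722190-737314 they were 18.4 FPM in hindwing and 3.15 FPM in forewing, with 6 and 5 exons. Both are loci where the deeper-covered hindwing assembly held every forewing intron and more. At nscaf1690:7200230-7245845, a 3-exon locus drawn out over 45616 bases, the level was 7.31 FPM in hindwing and 1.04 FPM in forewing with the same 2 introns. At the 2-exon locus nscaf2847:952390-959592 it was 9.67 FPM in hindwing and 1.62 FPM in forewing, again with the same intron. The last, nscaf2589:3866045-3875430, had 116 FPM in hindwing and 12.1 FPM in forewing and is taken up below with the loci that overlap another strand.

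Among the most abundant loci, 2 were below 4-fold. The short 5-exon locus nscaf2829:3912808-3915604 had the highest level of all 69, 1812 FPM in hindwing and 891 FPM in forewing, and was close to the limit with a log2 ratio of 1.02 by FPM and 1.71 by FPKM. Its single hindwing form of 239 bases was not among the 2 forewing forms, with which it shared 3 of 4 introns. The 4-exon locus nscaf3058:4314719-4322369 had 556 FPM in hindwing and 189 FPM in forewing, with the same 3 introns in both buds, lengths of 1960 and 2033 bases, and log2 ratios between 1.47 and 1.60 by the 3 measures.

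The 69 loci had slightly fewer exons and shorter spans than spliced loci at large. The exon number, taken as the most in a transcript of either assembly, had a median of 4 with quartiles of 3 and 7, compared with a median of 4 in the 72 forewing-higher loci and 5 in the 10180 others. Their span on the scaffold had a median of 6041 bases, compared with 5640 in forewing-higher loci and 7422 in the others. The assembled length was shorter still, with a median mean length of 890 bases in the hindwing assembly, compared with 1517 in forewing-higher loci and 1677 in the others. A mean hindwing length under 300 bases was found at 13 of the 69 loci (18.8%), compared with 6.94% and 3.06%. Since the rule used FPKM, which divides by the length, these shares are a description of the set.

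**Figure D3:**
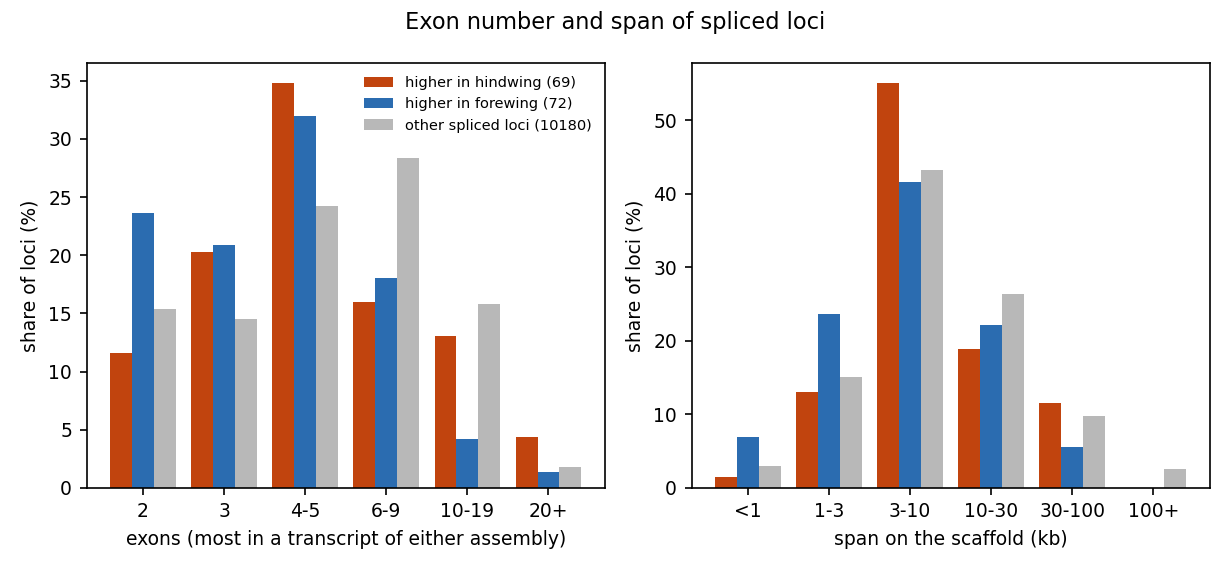
Share of loci by exon number (left) and by span on the scaffold in kb (right) for the 69 loci higher in hindwing, the 72 loci higher in forewing and the 10180 other spliced loci. The 69 loci have a median of 4 exons and a median span of 6041 bases.

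Exon-rich loci were found at about the general rate. Of the 69 loci, 12 had at least 10 exons (17.4%), compared with 4 of the forewing-higher loci (5.56%) and 17.6% of the others. Apart from the loci on nscaf98, nscaf1690 and nscaf3093 described above, these had log2 FPM ratios below 2. The one with the most exons was nscaf2210:2207358-2292385, with 27 exons in its longest forewing form, over 85028 bases. It had 62.8 FPM in hindwing and 25.3 FPM in forewing, and all 25 hindwing introns were among the 28 forewing introns. The hindwing bud had it in 6 pieces of up to 18 exons and the forewing bud in 5 spliced forms of 22 to 27 exons, so the better-covered bud was not the one with the more complete assembly. By contrast nscaf2855:2339178-2369179 was assembled with the same 23 introns in both buds. Its level was 138 FPM in hindwing and 52.9 FPM in forewing, at log2 ratios of 1.27 by FPKM, 1.28 by the midpoint and 1.37 by FPM.

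Other exon-rich loci were nscaf2853:3889791-3910630, with 117 FPM in hindwing and 45.3 FPM in forewing over the same 13 introns, and nscaf2986:2843870-2858775, with 22.9 FPM in hindwing and 5.71 FPM in forewing, where the hindwing transcript had 11 exons and the forewing one 10. At nscaf3058:2900961-2913775 the level was 6.04 FPM in hindwing and 1.07 FPM in forewing, with 11 hindwing introns that included all 7 of the forewing. A locus of 15 forewing and 12 hindwing exons, nscaf2800:1851483-1863007, had 8.30 FPM in hindwing and 3.39 FPM in forewing. These 4 ranged from 1.08 to 1.83 in log2 FPM ratio.

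The longest span, 86815 bases, was that of nscaf2330:1227819-1314633 on the minus strand, with up to 10 exons in hindwing and 7 in forewing and 15.5 FPM in hindwing against 5.06 FPM in forewing. Inside it, on the same strand, lay the locus with the shortest span, nscaf2330:1235590-1236487, of 898 bases and 2 exons. That inner locus had 4.17 FPM in hindwing and 0.42 FPM in forewing, the lowest forewing level of the 69, from 15.5 fragments. A nested pair on opposite strands was found on nscaf2993, where the 4-exon locus 4573558-4614703, with 14.3 FPM in hindwing and 4.17 FPM in forewing, spans the smaller 4-fold locus described above. By FPM the outer loci were 2.72- and 2.95-fold higher in hindwing, and the inner loci 3.65- and 4.89-fold. At both nested pairs, unspliced reads from an intron of the outer locus cannot be told apart from those of the inner locus. On nscaf2330 the loci lie on the same strand, and on nscaf2993 the reads carry no strand because the kit did not mark it.

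Most introns of the 69 loci were read in both buds. The assemblies held 364 introns in hindwing and 336 in forewing, of which 309 were shared, 84.9% of the hindwing and 92.0% of the forewing introns. In the 10180 other loci the shares were 95.0% and 93.1%, so a larger share of the hindwing introns of the 69 loci was missing from the forewing assembly. The exon number was larger in hindwing at 14 loci (20.3%, compared with 9.50% of the others), larger in forewing at 13 and equal at 42. A hindwing-only intron at a locus with little forewing RNA is limited by the forewing depth, so its absence from the forewing assembly does not show that it was not used.

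The same set of introns was found in both buds at 38 of the 69 loci (55.1%), compared with 65.0% of the others. The spliced form with the highest FPKM was the same in both at 37 loci (53.6%, compared with 66.5% of the others). Of the 32 loci with different leading forms, the 4 highest in hindwing level, nscaf2829, nscaf1898:8637908, nscaf2990 and nscaf98, are described above. The fifth in level was nscaf2210:3029665-3065290, where a 3-exon hindwing form with a long first intron led with 52.3% of the FPKM, and the forewing's only form made up the other 47.7%. At least 1 intron chain was shared at 48 loci, and by the FPKM of the shared chains alone 40 of these were at least 2-fold higher in hindwing, with a median log2 ratio of 1.44 over the 48. At 31 of the 48 the shared chain was the only spliced form of each bud. Its FPKM was there the whole spliced FPKM, which the rule had used, so the count of 40 is a description only.

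**Figure D4:**
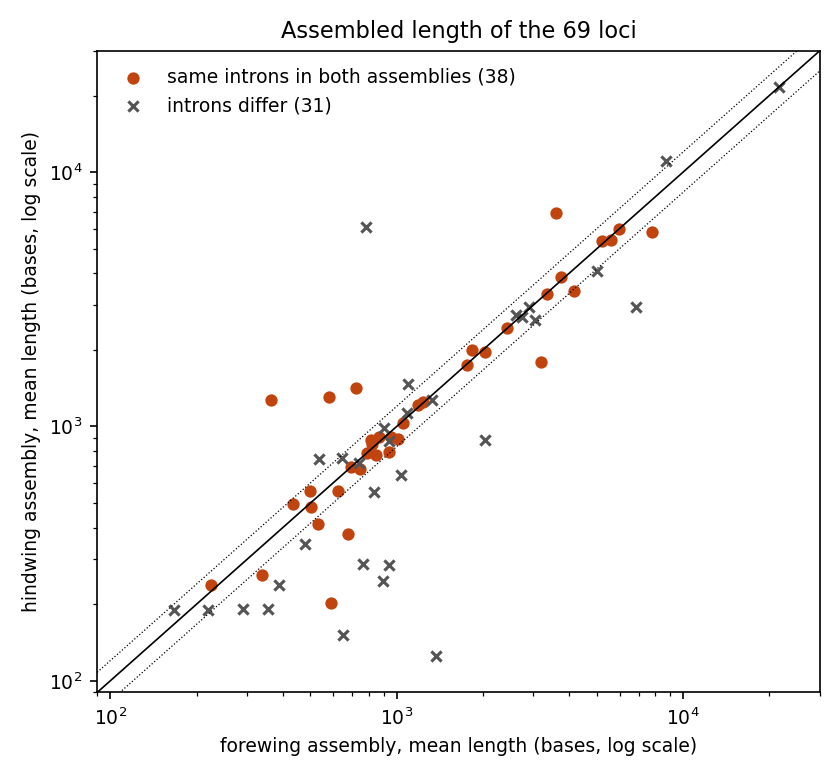
Mean assembled length of each of the 69 loci, weighted by the interval midpoint, in the hindwing assembly (vertical) and the forewing assembly (horizontal), in bases on log scales, with the line of equal length and dotted lines at 1.2 times. The 38 loci whose introns were the same are filled circles and the 31 whose introns differ are crosses; 40 loci lie between the dotted lines.

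Part of the excess at some loci came from unspliced transcripts. Transcripts without introns were present at 19 of the 69 loci, and at 7 of them the spliced transcripts held less than 50% of the hindwing FPKM. Summed over the multi-exon transcripts alone, 59 of the 69 loci were at least 2-fold higher in hindwing by all 3 measures and 10 were not. At loci without unspliced transcripts this sum is the one the rule used and could not differ, so the 10 were all among the 19. Among the 10 was nscaf2839, above, as was nscaf3071:60-3588, with 8.56 FPM in hindwing and 2.64 FPM in forewing, where the spliced share was 5.17% in hindwing and the log2 ratio of the spliced part was -0.87 by FPM. The locus nscaf2770:739147-768896, of 11 exons and the same 10 introns in both buds, had 55.0 FPM in hindwing and 21.1 FPM in forewing, but its spliced part was at -0.13. At nscaf2674:1301272-1305542 an unstranded transcript joined spliced transcripts of opposite strands, which shared no intron, and the spliced part was at -1.22.

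For another 3 of these loci the spliced part was below the limit without reaching a lower hindwing level. The log2 FPM ratio of the spliced part was 0.35 at nscaf2859:1441768-1450158, 0.91 at nscaf3026:4888704-4903310 and 0.59 at nscaf2823:4129859-4134469. At nscaf2865:5164283-5168125 it was -0.34. The last 2, nscaf2556:32567-33781 at just under 1 and nscaf2797:1041793-1044154 at 0.83, missed the limit by FPM only, with 2.52 and 3.05 by FPKM. At these 10 loci the 2-fold excess by all 3 measures was thus reached only with the unspliced transcripts included.

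The kit did not mark strand, and 11 of the 69 loci (15.9%) shared exon bases with a locus assembled on the other strand, compared with 30.6% of forewing-higher loci and 10.9% of the others. At all 11 the partner had a lower level in hindwing than in forewing, with the closest values, 50.2 FPM in hindwing and 51.0 FPM in forewing, at the partner on nscaf2874. The locus nscaf2589:3866045-3875430 had 116 FPM in hindwing and 12.1 FPM in forewing, while its minus-strand partner had 33.7 FPM in hindwing and 126 FPM in forewing, so that the 2 together had 149 FPM in hindwing and 138 FPM in forewing. At nscaf2210:3029665-3065290, which shared 97.6% of its exon bases, the locus had 328 FPM in hindwing and 140 FPM in forewing, and with its partner 665 FPM in hindwing and 598 FPM in forewing. Over the 11 loci summed with their partners, 1 remained at least 2-fold higher in hindwing and the other 10 had log2 ratios between -0.16 and 0.29. The reads of such partners cannot be told apart by strand, and at these 10 loci the summed level of both strands was near equal in the 2 buds.

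The exception was nscaf1898:8637908-8640632. It shared 77.7% of its exon bases with a 3-exon plus-strand locus of 3.32 FPM in hindwing and 27.2 FPM in forewing, and the 2 together had 1331 FPM in hindwing and 306 FPM in forewing, a log2 ratio of 2.12. The other partners lay on nscaf2655, nscaf2823, nscaf2511, nscaf463, nscaf1681, nscaf2855, nscaf2674 and nscaf2874. Among them nscaf1681:3854621-3860661, a 2-exon locus, had 125 FPM in hindwing and 44.0 FPM in forewing, against 70.2 FPM in hindwing and 162 FPM in forewing for its partner. At nscaf463:12350-17315 the locus had 122 FPM in hindwing and 44.3 FPM in forewing, and the partner 34.3 FPM in hindwing and 131 FPM in forewing. At nscaf2855:2500729-2508212 the locus had 34.5 FPM in hindwing and 13.9 FPM in forewing, and both strands together 73.9 FPM in hindwing and 67.4 FPM in forewing.

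These traits divide the 69 loci. In 21 loci the introns were the same in both buds, the length agreed within 1.2 times, the spliced transcripts alone were 2-fold higher by all 3 measures, and no exon base was shared with the other strand. This choice was made after the values were seen. The 21 loci had a median of 4 exons and a median log2 FPM ratio of 1.56, from 1.07 to 3.81, with hindwing levels from 3.48 to 556 FPM and forewing levels from 0.42 to 189 FPM. The deposited FPKM lay inside its own interval in both buds at only 5 of the 21, compared with 40 of the 69 (58.0%) and 71.6% of the 10180 others. The 21 included 7 of the 20 loci of at least 4-fold: those at nscaf2136, nscaf2930 and nscaf1898:8918808, 2 on nscaf2767, nscaf1690:7200230 and nscaf2847. A further 20 loci overlapped the other strand or had a spliced part below 2-fold. In the last 28 the introns differed (21 loci), the length was unlike (19 loci) or both (12 loci), and they included 10 loci of at least 4-fold, among them nscaf98, nscaf3093, nscaf2902 and nscaf1898:4410251.

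The loci lay on 45 scaffolds, with 35 on the plus strand, 33 on the minus strand and 1 joined over both. There were 3 loci on each of 8 scaffolds, 2 on each of 8 and 1 on each of 29. Of the 107 nearest spliced loci on either side within 50 kb, 10 were themselves among the 69 (9.35%), compared with 2 of 126 for the forewing-higher loci (1.59%). Among all 10321 spliced loci the 69 were 0.669%. These 10 formed the 5 pairs on nscaf2330, nscaf2993, nscaf3015, nscaf3027 and nscaf3093, of which 2 are nested and 3 stand apart. Whether the loci of the nested pairs, or those 533 bases apart on nscaf3093, are separate units was not tested. The other 97 neighbours had a median log2 FPM ratio of 0.01, with quartiles of -0.16 and 0.25. Of these 97, 5 were at least 2-fold higher in hindwing by FPM and 2 at least 2-fold higher in forewing. Among the 17230 neighbours of all 10321 spliced loci, 281 were at least 2-fold higher in hindwing and 319 in forewing. Each pair is counted from both sides, and no test was made of the share. Outside the pairs most neighbours thus had near-equal levels in the 2 buds by FPM.

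Both nscaf3015 and nscaf3027 carried a stretch of neighbouring loci with like exons and a higher FPM in hindwing. On nscaf3015 the 5 spliced loci between 2134220 and 2203345, all on the plus strand, had log2 FPM ratios of 1.15, 1.05, 0.74, 1.31 and 1.28, so that all 5 were higher in hindwing and 3 were among the 69. The first of these had 26.3 FPM in hindwing and 11.3 FPM in forewing. The fourth had 10.3 FPM in hindwing and 3.57 FPM in forewing, and the fifth 14.7 FPM in hindwing and 5.49 FPM in forewing. Of the 2 that did not meet the rule, the second had 2.76 FPM in hindwing and 0.81 FPM in forewing, the latter from 30.1 fragments. Its log2 ratio was 0.66 by FPKM and 0.69 by the midpoint, and it had 5 exons in hindwing and 4 in forewing. On nscaf3027 the 4 spliced loci between 2603684 and 2728207 held 3 of the 69, all on the minus strand and with the same 4 introns in both buds. Their levels were 35.4, 7.63 and 21.7 FPM in hindwing and 15.2, 1.90 and 8.63 FPM in forewing in order of position. The plus-strand locus between them, at 2671536-2692977, had a log2 FPM ratio of 0.28.

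**Figure D5:**
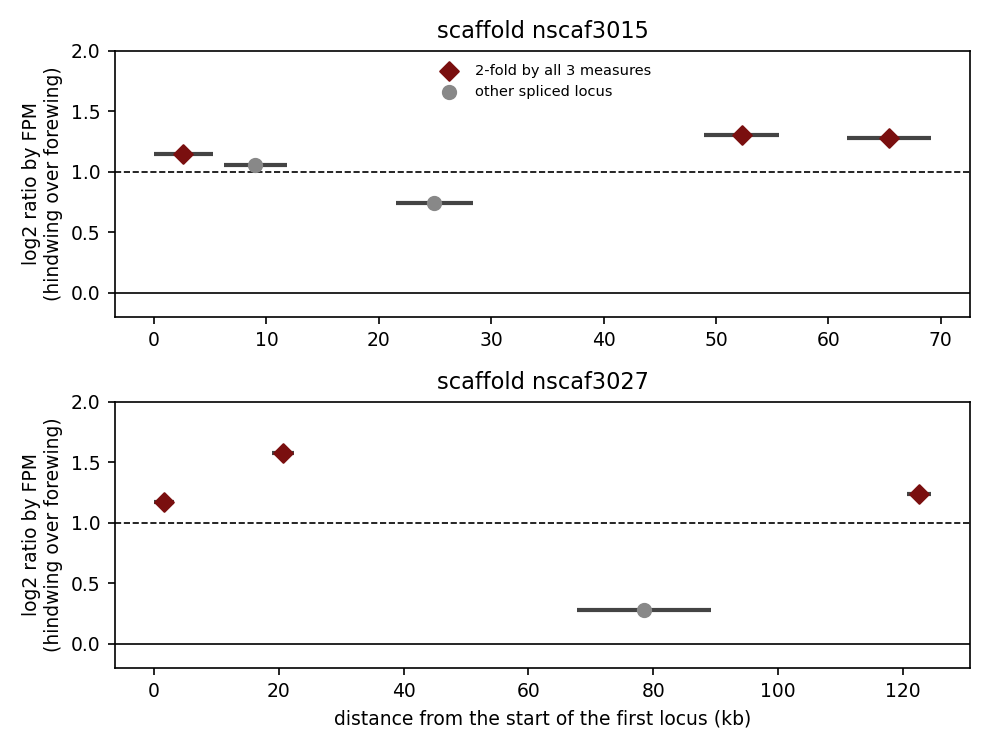
The log2 FPM ratio of hindwing over forewing for every spliced locus along the stretches of nscaf3015 (top) and nscaf3027 (bottom), by distance in kb from the start of the first locus; bars give the span of each locus, diamonds the loci 2-fold by all 3 measures and circles the others, and the dashed line is the 2-fold limit. All 5 loci of nscaf3015 and 3 of the 4 of nscaf3027 lie at 0.74 or above.

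Counted from the start of the transcript, the internal exons of these loci had nearly the same lengths. In the hindwing forms of nscaf3015 exon 2 had 199 or 220 bases and, in the 5-exon loci, exon 3 had 128 or 134 and exon 4 had 156. The 7-exon locus at its end had 220 and 131 bases followed by 156 for exons 4 to 6. On nscaf3027 the minus-strand loci had 226, 152 and 159 bases, then 226, 152 and 162, then 223, 125 and 153, while the plus-strand locus had 220, 131 and 156, lengths also found on nscaf3015. Whether these loci are copies of one gene was not tested, as no sequence was analysed here. Reads of near-identical copies can be split among them, so the single levels are uncertain.

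Exons in a row with 199 to 226, 125 to 152 and 153 to 162 bases, the ranges of exons 2 to 4 in the 5-exon loci of these stretches among the 69, were found at 48 of the 10321 spliced loci (0.465%). The 6 of the 69 loci among them all lay in the 2 stretches. The 39 loci outside the stretches had a median log2 FPM ratio of 0.06, with quartiles of -0.08 and 0.23, and 1 of them was at least 2-fold higher in hindwing by FPM. The 9 loci inside had a median of 1.17, but 6 of them were among the 69 and so at 1 or above by the rule. The stretches were chosen for holding 3 of the 69 each, so the higher median inside follows from that choice. Only 4 of the 39 had 5 exons, so most of them were unlike the 5-exon loci of the stretches in exon number. The exon lengths were chosen after the stretches had been seen, so these values describe them only.

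A looser group of 3 loci lay on nscaf2855 within 292 kb, but with 16 spliced loci in reach. It joined the 24-exon locus above, the 4-exon locus that overlaps the other strand and a 3-exon locus at 2215789-2269160 with 7.67 FPM in hindwing and 3.16 FPM in forewing. No 2 of these were neighbours, and their exon numbers were unlike.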

How the data were processed

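Paired reads of the 2 libraries were, per the study's methods, mapped with TopHat before assembly by Cufflinks (2.1.1 in the submitters' processing notes, which also name Cuffdiff). The deposited assemblies give, for each transcript, the authors' FPKM, its confidence bounds and coverage, not scaled between libraries. The score column deposited by the authors ranks the forms of a gene and was not used. The kit did not mark strand, so strand came from splice sites, and PCR copies were not marked.

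Loci, measures and the 2-fold rule are as given above, with a pseudocount of 1, which understates ratios of low values, and a minimum of 1 FPKM in a library. Depth was estimated from 6000 bounds per library, which were whole fragments within 0.05 for 97.0% in hindwing and 95.9% in forewing. Neighbours were the nearest spliced loci on either side within 50 kb on either strand.

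Loci described singly were those of at least 4-fold, the 5 most abundant by hindwing FPM, those with the most exons, longest and shortest span, every locus next to another of the 69, the 5 most abundant with different leading forms, and 3 on either side of the limit. Others named were chosen after their values were seen. The 69 loci, this rule and the alternatives were chosen with earlier results of these data known. No test was made, as each bud had 1 library. Python 3.11.15, numpy 2.4.6, pandas 2.3.3 and matplotlib 3.10.9 were used.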

Additional observations from a re-analysis of the deposited data

How the results depend on the processing

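The count of 69 loci moved with the pseudocount, to 113 at 0.1 (all 69 among them) and to 34 at 5. It was 40 among loci of like assembled length, 38 among loci with the same introns in both libraries and 20 at 4-fold. It stayed within 1.5 times under the other settings, between 56 with transcripts of at least 300 bases and 99 with multi-exon transcripts alone, but not with the same loci: the most abundant transcript alone gave 91 loci with 53 in common, multi-exon transcripts alone shared 59, and overlap on either strand gave 59. The settings on introns, strand overlap, intervals, 300 bases and multi-exon transcripts were chosen after seeing the data. The number of loci next to another of the 69 was 10 at 20, 50 and 100 kb, and the same leading form was found at 37 loci by FPKM and 38 by midpoint. Of 99 log2 FPM ratios of the 33 singly chosen loci under other pseudocounts or rescaling, which cannot turn their direction, 28 moved by more than 0.5 of the width of the interval. No paired analysis was possible because each wing bud had 1 library. With 1 pool per bud, differences between animals, pools and library preparations cannot be told apart from those between wing buds. Forewing values under about 30 fragments limit the ratios of the lowest loci.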
